A study of Homo sapiens with 8 samples.

Results

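The 9 genes described here belong to the ETS family of transcription factors and were followed across 4 human prostate cancer cell lines and in their response to depletion of DNA-PK. ERG, FLI1, ETV1, ETV4, ETV5, EHF, ELF3, ETS1 and ETS2 were taken by name from the 22395 genes with a probe set that carries 1 gene symbol. Each of the 9 had 1 such probe set. All 9 lay above the filter on low signal (a mean over the arrays above 2.51, the 25th percentile), with 16796 genes in all. DNA-PK is a kinase that takes part in the joining of broken DNA ends, and its catalytic subunit is encoded by PRKDC. The lines were C4-2B (a bone-tropic derivative of LNCaP), DU145 (from a brain metastasis), PC3 (from a bone metastasis) and VCaP (from a vertebral metastasis). The control group received non-targeting siRNA and the DNAPK knockdown group received siRNA against DNAPK, and RNA was taken 48 hours later. There was 1 array per treatment in each line, so 8 arrays, and nothing in the labels names a second culture of a line. Every p-value therefore measures the spread over these lines or arrays, not the spread between cultures. Signals are log2 RMA values (RMA summarises the probes of a set after making the distributions of all arrays alike), and every siRNA difference is DNAPK knockdown minus control on that scale.

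ETS proteins share a DNA-binding domain that reads sites with a GGAA core. In prostate cancer, rearrangements place ERG, or less often ETV1, ETV4 or ETV5, under the control of androgen-regulated genes such as TMPRSS2. VCaP carries the TMPRSS2-ERG fusion, and LNCaP, the parent of C4-2B, is known for a rearranged ETV1. ETV1, ETV4 and ETV5 form the PEA3 group, which the repressor CIC silences and which ERK signalling relieves. ETS1 and ETS2 are direct substrates of ERK, whereas EHF and ELF3 are epithelial members of the family. ERG protein has been described to bind the DNA-PK catalytic subunit and PARP1.

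Several of the family lie next to each other on a chromosome. In the order of protein-coding genes in RefSeq (GRCh38.p14), ERG is followed by ETS2 on chromosome 21, ELF5 by EHF on chromosome 11 and ETS1 by FLI1 on chromosome 11. Promoter sequence was at hand for 5 of the 9 genes. The 250 bases before the outermost listed start are shown for ERG and ETS2, for EHF and its neighbour ELF5, and for ETV1, because the neighbours are compared below and ETV1 is the gene whose signal stood apart in PC3. The sequences are from RefSeq and run 5′ to 3′ on the gene's strand, with each GGAA or its reverse complement TTCC in capitals. They cover chr21:38660668-38660917 (minus strand) for ERG, chr21:38804933-38805182 (plus strand) for ETS2, chr11:34624007-34624256 (plus strand) for EHF, chr11:34511725-34511974 (minus strand) for ELF5 and chr7:13991426-13991675 (minus strand) for ETV1.
ERG: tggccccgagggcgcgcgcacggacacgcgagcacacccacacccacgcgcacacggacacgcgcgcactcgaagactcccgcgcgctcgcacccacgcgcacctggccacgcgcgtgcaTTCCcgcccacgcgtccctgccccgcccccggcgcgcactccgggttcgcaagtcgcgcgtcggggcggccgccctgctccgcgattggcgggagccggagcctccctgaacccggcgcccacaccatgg
ETS2: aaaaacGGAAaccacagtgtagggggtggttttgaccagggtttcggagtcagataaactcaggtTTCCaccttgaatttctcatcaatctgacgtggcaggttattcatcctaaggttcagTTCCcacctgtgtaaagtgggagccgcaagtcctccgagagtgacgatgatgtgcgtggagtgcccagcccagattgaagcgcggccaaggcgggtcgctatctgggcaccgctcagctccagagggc
EHF: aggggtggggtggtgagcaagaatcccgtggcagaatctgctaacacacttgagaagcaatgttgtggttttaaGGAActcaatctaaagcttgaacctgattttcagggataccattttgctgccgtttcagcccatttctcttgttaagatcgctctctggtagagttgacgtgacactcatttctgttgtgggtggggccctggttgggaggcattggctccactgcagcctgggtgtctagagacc
ELF5: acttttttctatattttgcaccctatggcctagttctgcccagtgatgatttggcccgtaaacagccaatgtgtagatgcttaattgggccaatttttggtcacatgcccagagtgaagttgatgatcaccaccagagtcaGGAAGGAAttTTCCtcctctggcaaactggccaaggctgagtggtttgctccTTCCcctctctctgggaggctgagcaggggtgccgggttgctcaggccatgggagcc
ETV1: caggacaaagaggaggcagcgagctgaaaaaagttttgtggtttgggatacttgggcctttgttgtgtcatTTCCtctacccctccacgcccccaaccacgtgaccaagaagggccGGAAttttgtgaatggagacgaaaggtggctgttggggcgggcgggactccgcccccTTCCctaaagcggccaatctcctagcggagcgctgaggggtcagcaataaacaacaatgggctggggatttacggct
Searched on both strands, the motif occurred 1 time in the ERG window, 3 times in that of ETS2, 1 time in that of EHF, 4 times in that of ELF5 and 3 times in that of ETV1. Of 35116 promoter windows of the same length, 92.7% held it, with a median of 3 matches. The longer motif CCGGAA, or TTCCGG on the other strand, contains GGAA and so overlaps it, and it was present in 14.5% of windows. Among the 5 windows shown it occurred in that of ETV1. Over all listed starts of a gene there were 1 to 4 matches of GGAA for ERG, 3 to 5 for ETV1, 3 to 6 for ETS2 and 0 to 1 for EHF. A match is a string of letters and was not tested as a binding site.

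PRKDC, the check of the labels, was lower on the knockdown array of each line, to unequal degrees. C4-2B had the largest difference, -2.53, ahead of PC3 (-1.99), DU145 (-1.08) and VCaP (-0.62). VCaP thus kept the most PRKDC signal, at 0.650 of its control, and it is also the line in which the most genes differed by over 0.5 between its 2 arrays (23.3%, beside 11.4% for DU145, 11.3% for PC3 and 8.27% for C4-2B). Array medians lay between 2.94 and 2.99, and the 2 arrays of a line correlated at 0.972 to 0.988 over all probe sets. Cell types that are known for ERG, FLI1 or ETS1 left little signal. Of the listed endothelial markers 5 were measured, with a highest signal of 4.91 (KDR in the PC3 control), while CDH5 reached at most 3.18 on any array. The mean over that list was 2.24 to 2.83 per array. The 6 immune markers measured had a highest signal of 3.25, with list means of 2.15 to 2.43. The 4 fibroblast markers measured reached at most 5.06, in COL1A1, with list means of 2.29 to 3.06. Of the 5 line markers measured, TMPRSS2 read 9.03 in the VCaP control and 2.18 in the DU145 control. HOXB13, a prostate lineage factor, read 7.41 or more on the arrays of C4-2B, PC3 and VCaP and at most 2.36 in DU145. VIM read at least 7.22 in DU145 and PC3 and at most 4.29 in C4-2B and VCaP. The basal keratin gene KRT5 reached at most 2.66. KLK3, which encodes PSA, read 10.12 and 10.24 in C4-2B but 4.46 and 4.75 in VCaP, a line known to make PSA.

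The lines differed widely in which ETS genes they expressed. ERG was high in VCaP, ETV1 and ETV4 were high in PC3, EHF was high everywhere except DU145, and ETS1 was high in DU145 and PC3. Each of the 6 pairs of lines was compared with limma, with treatment as a term, and a gene was called at a Benjamini-Hochberg adjusted p below 0.05 over all tested genes. Of the 9 genes, 6 were called between DU145 and C4-2B (34.5% of all tested genes were), 7 between PC3 and C4-2B (36.2% of all), 3 between VCaP and C4-2B (34.7% of all), 5 between PC3 and DU145 (30.5% of all), 7 between VCaP and DU145 (41.7% of all) and 8 between VCaP and PC3 (41.1% of all). The level of 7 of the 9 genes spanned over 2 log2 units between the highest and the lowest line, which held for 15.5% of all tested genes. The exceptions were FLI1 and ELF3.

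**Figure D1:**
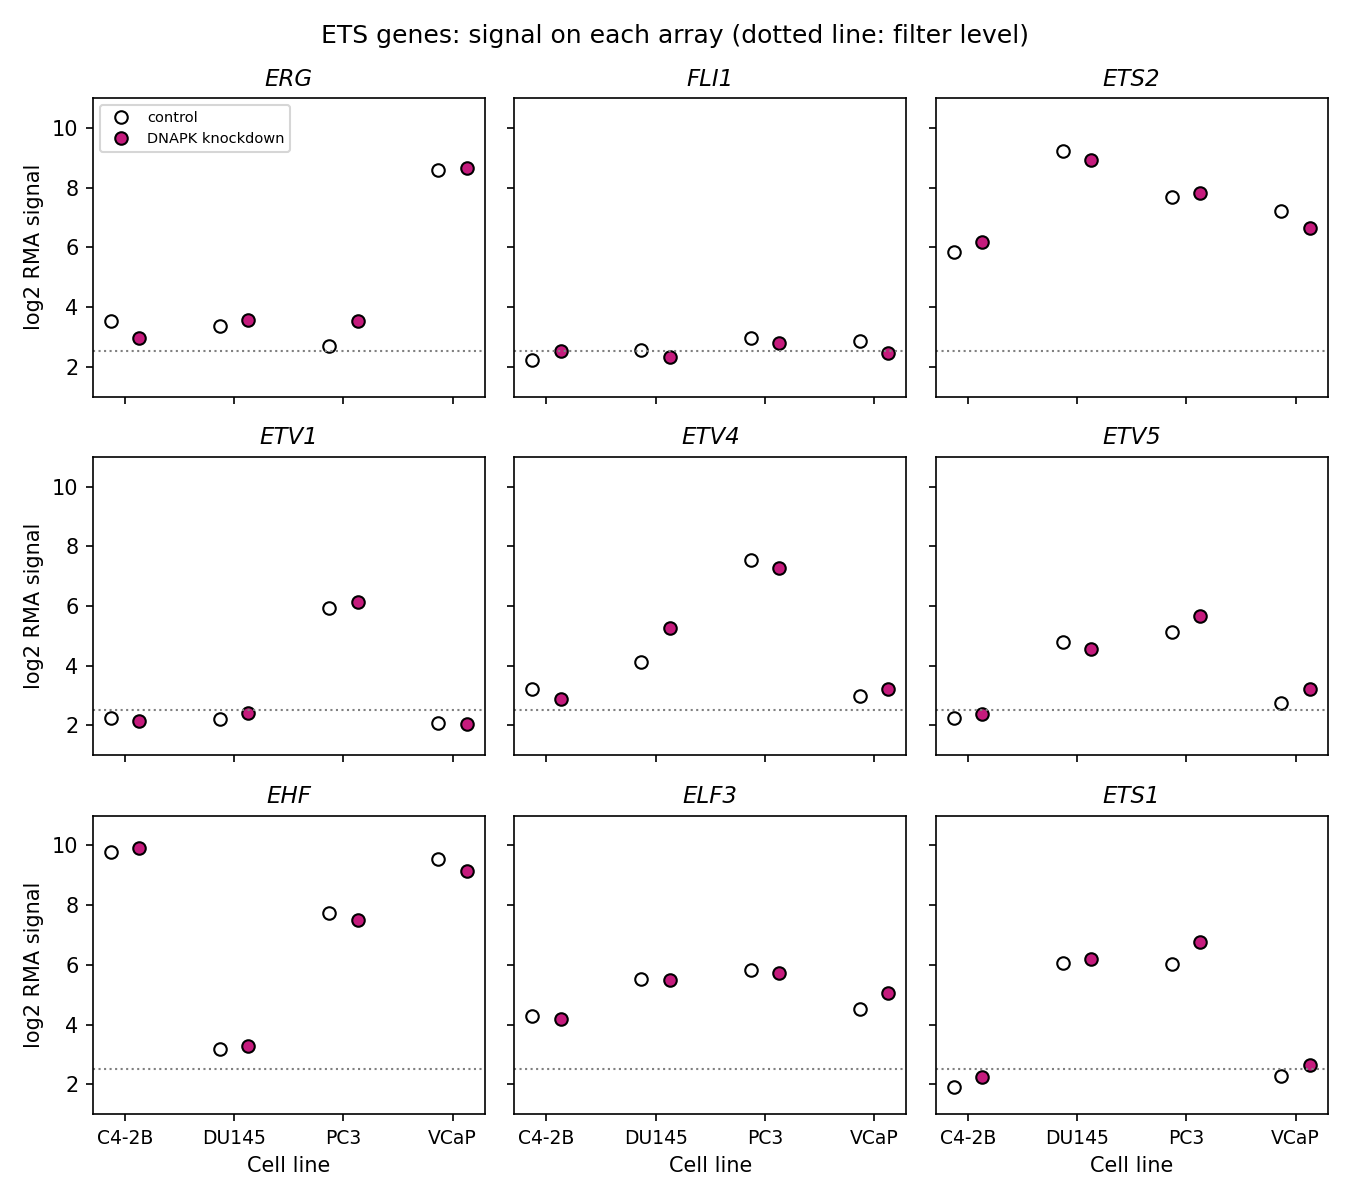
Log2 RMA signal (vertical axis) of the 9 ETS genes on each of the 8 arrays, by cell line, with open points for control and filled points for DNAPK knockdown; the dotted line is the filter level of 2.51. The VCaP points of ERG sit at 8.57 and 8.65, the PC3 points of ETV1 at 5.92 and 6.15 and the DU145 points of EHF at 3.17 and 3.27, each apart from the other lines, while the FLI1 points stay between 2.21 and 2.96.

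ERG, the gene most often rearranged in prostate cancer, read 8.57 on the control and 8.65 on the knockdown array of VCaP. The C4-2B arrays read 3.52 and 2.95, those of DU145 3.35 and 3.56 and those of PC3 2.68 and 3.54. The VCaP arrays were high and all 6 others low, with no overlap. In bulk RNA, fewer cells with a transcript and less of it per cell cannot be told apart. VCaP exceeded DU145, the next line, by 5.15 (95% interval 4.45 to 5.86), a 35.6-fold difference in signal (limma, adjusted p = 1.39e-05). It exceeded C4-2B 41.5-fold and PC3 45.3-fold. The 6 low arrays, at 2.68 to 3.56, lay near the median of all probe sets (2.96), so the size of these folds is not reliable. The arrays of DU145, C4-2B and PC3 overlapped, and no pair among these lines passed the test (limma, adjusted p = 0.438 to 0.789).

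FLI1, the closest relative of ERG and a gene of blood and endothelial cells, stayed near the filter level in every line. The C4-2B arrays read 2.21 and 2.53, the DU145 arrays 2.55 and 2.33, the PC3 arrays 2.96 and 2.79 and the VCaP arrays 2.85 and 2.47. Of its 8 arrays, 3 lay below the filter level. The line levels spanned 0.51, and none of the 6 pairs of lines passed the test. The pair with the smallest adjusted p was PC3 over C4-2B, at 0.51 (interval 0.04 to 0.97; limma, adjusted p = 0.0883).

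The PEA3 genes were highest in PC3. ETV1 read 5.92 and 6.15 in PC3. The C4-2B arrays read 2.25 and 2.14, the DU145 arrays 2.23 and 2.41 and the VCaP arrays 2.07 and 2.06. The 6 arrays outside PC3 all lay below the filter level. ETV1 thus passed the filter on its mean only through PC3, the line in which it was then called higher. The measured signal of PC3 exceeded that of DU145, the next line, by 3.71 (interval 3.33 to 4.10; limma, adjusted p = 8.11e-06). Signals this low have no reliable size, so folds against them are given as bounds, with an array below the filter level set to that level. On that basis PC3 was at least 11.5-fold higher than each of the other lines. The filter level is a percentile of all genes and not a limit of detection. The low signal in C4-2B stands beside the rearranged ETV1 known from its parent line, and the sources used here do not say which exons the probe set covers. No pair among the 3 low lines passed the test (limma, adjusted p = 0.265 to 0.619).

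ETV4 read 7.53 and 7.27 in PC3, 4.13 and 5.26 in DU145, 3.22 and 2.88 in C4-2B, and 2.99 and 3.21 in VCaP. PC3 was highest, DU145 stood between with its 2 arrays far apart, and C4-2B and VCaP overlapped. PC3 exceeded DU145 by 2.70 (interval 1.92 to 3.49), a 6.51-fold difference (limma, adjusted p = 9.5e-04). DU145 exceeded VCaP by 1.59 (interval 0.81 to 2.38; limma, adjusted p = 0.00702). It exceeded C4-2B by 1.65 (limma, adjusted p = 0.00709), and this call was lost without the C4-2B knockdown array (1.30, adjusted p = 0.0776). VCaP and C4-2B differed by 0.05 (interval -0.73 to 0.84; limma, adjusted p = 0.923).

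ETV5 was higher in PC3 and DU145 than in VCaP and C4-2B. It read 5.12 and 5.67 in PC3, 4.80 and 4.55 in DU145, 2.75 and 3.23 in VCaP, and 2.25 and 2.38 in C4-2B, so no 2 lines overlapped. Both C4-2B arrays lay below the filter level, and the low end of that order has no reliable size. The step from DU145 down to VCaP was 1.68 (interval 1.17 to 2.20), a 3.21-fold difference (limma, adjusted p = 7.28e-04). The steps from PC3 to DU145 (0.73, adjusted p = 0.0415) and from VCaP to C4-2B (0.68, adjusted p = 0.0487) were called by limma with little margin, and the latter was at least 1.39-fold when counted from the filter level. The call of PC3 over DU145 was lost without any of 5 arrays (both of C4-2B, both of PC3 or the DU145 knockdown), where the difference was 0.41 to 0.94. The call of VCaP over C4-2B was lost without any array of C4-2B, PC3 or VCaP, where the difference was 0.51 to 0.85, and with median centring (0.64).

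The epithelial members divided differently. EHF, a factor of glandular epithelium, read 9.79 and 9.91 in C4-2B, 9.55 and 9.15 in VCaP, and 7.73 and 7.50 in PC3, but 3.17 and 3.27 in DU145. DU145 was low and the other 3 lines high, with no overlap. C4-2B exceeded DU145 by 6.63 (interval 6.19 to 7.07), a 99.1-fold difference in signal (limma, adjusted p = 2.28e-06), and VCaP exceeded it 70.2-fold and PC3 21.1-fold. The DU145 signals lay near the median of all probe sets (2.96), so the size of these folds is not reliable. VCaP exceeded PC3 by 1.73 (limma, adjusted p = 2.65e-04). The arrays of C4-2B and VCaP, the neighbours at the top of the order, did not overlap. The pair did not pass the test after adjustment (0.50, interval 0.06 to 0.93, limma, adjusted p = 0.0758). That pair was called without the VCaP control array (0.70, adjusted p = 0.0412).

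ELF3 ran the other way, with the highest level in PC3. It read 5.83 and 5.74 in PC3, 5.52 and 5.51 in DU145, 4.53 and 5.07 in VCaP, and 4.27 and 4.17 in C4-2B. No 2 lines overlapped, although the order spanned only 1.57. PC3 exceeded C4-2B by 1.57 (interval 1.10 to 2.04), a 2.96-fold difference (limma, adjusted p = 7.75e-04). DU145 exceeded VCaP by 0.72 (limma, adjusted p = 0.024), and this call was lost without either DU145 array or the VCaP control, where the difference was 0.65, 0.78 and 0.41. PC3 over VCaP (0.99; limma, adjusted p = 0.00605) was lost without the PC3 control (0.87, adjusted p = 0.0562). PC3 and DU145 did not pass the test (0.27, interval -0.20 to 0.74; limma, adjusted p = 0.36), nor did VCaP and C4-2B (0.58, interval 0.10 to 1.05; limma, adjusted p = 0.0615). Without the VCaP control, VCaP over C4-2B was called at 0.88 (limma, adjusted p = 0.0125).

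ETS1, an ERK-responsive factor tied to invasive growth, divided the lines into high and low. It read 6.02 and 6.77 in PC3 and 6.06 and 6.21 in DU145, but 1.92 and 2.24 in C4-2B and 2.26 and 2.64 in VCaP. The arrays of PC3 and DU145 overlapped, and 3 of the 4 arrays of the low lines lay below the filter level. The mean levels of C4-2B (2.08) and VCaP (2.45) were both below it, so ETS1 passed the filter only through PC3 and DU145. The measured signal of DU145 exceeded that of VCaP by 3.68 (interval 3.25 to 4.12; limma, adjusted p = 7.83e-06). Counted from the filter level, DU145 was at least 11.8-fold higher than VCaP and PC3 at least 14.7-fold higher than C4-2B. Within the high lines the difference was 0.26 (interval -0.18 to 0.69; limma, adjusted p = 0.343), and within the low lines it was 0.37 (interval -0.06 to 0.81; limma, adjusted p = 0.166).

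ETS2, its closest relative, gave a signal in all 4 lines and was highest in DU145. It read 9.23 and 8.93 in DU145, 7.70 and 7.83 in PC3, 7.22 and 6.63 in VCaP, and 5.84 and 6.18 in C4-2B, with no overlap between lines. All 6 pairs were called. DU145 exceeded C4-2B by 3.07 (interval 2.52 to 3.62), an 8.40-fold difference (limma, adjusted p = 6.29e-05), and its neighbour PC3 by 1.32 (adjusted p = 0.00512). PC3 exceeded VCaP by 0.84 (limma, adjusted p = 0.0244) and VCaP exceeded C4-2B by 0.92 (limma, adjusted p = 0.0204). Leaving out single arrays ended the closer calls. DU145 over PC3 was lost without the PC3 control (1.16, adjusted p = 0.0502). PC3 over VCaP was lost without either PC3 array or the VCaP knockdown (0.99, 0.68 and 0.52). VCaP over C4-2B was lost without either control array of that pair (0.62 without the C4-2B control and 0.60 without the VCaP control). Its neighbour ERG was highest in VCaP.

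Line patterns shared by several members were counted after their levels had been seen. ETV4, ETV5, ELF3, ETS1 and ETS2 were each called higher in DU145 and in PC3 than in both C4-2B and VCaP, 5 of the 9, where 5.24% of all tested genes had that pattern. EHF was the 1 member with the reverse pattern, which 3.79% of all tested genes had. ETV1, ETV4 and ETV5 were called higher in PC3 than in each other line, 3 of the 9 (6.15% of all tested genes). ETS2 was called higher in DU145 than in each other line (5.63% of all tested genes), and ETV5 and ETS2 were called lower in C4-2B than in each other line (3.88% of all). Over the alternatives run, including each array left out, these counts were 3 to 5 for the first pattern (3 without the PC3 control) and 2 to 3 for PC3. ETV1 passed the filter only through PC3, and ETS1 only through PC3 and DU145, so their place in these counts leans on those lines.

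Depletion of DNA-PK gave no call for any ETS gene. Over the 4 lines, the limma fit with the line as a block called 0 of the 9 at an adjusted p of 0.05, and 0 of all 16796 tested genes (0%). PRKDC itself, lower in each line with a mean of -1.56, was not called either (limma, adjusted p = 0.688). An absent call therefore does not show an absent response. At an unadjusted p under 0.05 there was 1 member, ETS1, and 7.19% of all tested genes (4.2% in its direction). The mean difference was above 0 for 6 of the 9 members, beside 56.4% of all tested genes. The median of the 9 means was 0.08, beside 0.03 over all tested genes.

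ETS1 was the 1 member with a difference above 0 in each of the 4 lines, a pattern that 11.5% of all tested genes had. PC3 had the largest difference (0.75, from 6.02 to 6.77), before VCaP (0.38), C4-2B (0.31, from 1.92 to 2.24) and DU145 (0.16). The mean was 0.40 ± 0.25 (SD, n = 4 lines; limma 95% interval 0.09 to 0.71, unadjusted p = 0.0175, adjusted p = 0.688). In C4-2B the signal lay below the filter level on both arrays, and the lines where ETS1 stood well above it, DU145 and PC3, had the smallest and the largest difference. Leaving out each line in turn gave means of 0.28 to 0.48, and the adjusted p stayed at 0.529 or above in every alternative.

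ERG barely differed in VCaP, the line where it is high. The difference there was 0.07, and 14.4% of all tested genes had a smaller absolute difference in that line. In the lines with low ERG signal it was -0.57 (C4-2B), 0.22 (DU145) and 0.86 (PC3). These scattered to both sides, and the PC3 difference arose between signals of 2.68 and 3.54, the lower of them near the filter level. The mean was 0.15 ± 0.59 (SD, n = 4 lines; limma interval -0.35 to 0.64, adjusted p = 0.874), and it turned to -0.09 without PC3. FLI1 differed by -0.38 in VCaP, -0.22 in DU145, -0.18 in PC3 and 0.32 in C4-2B, with a mean of -0.11 ± 0.30 (SD, n = 4 lines; limma interval -0.45 to 0.22, adjusted p = 0.848).

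**Figure D2:**
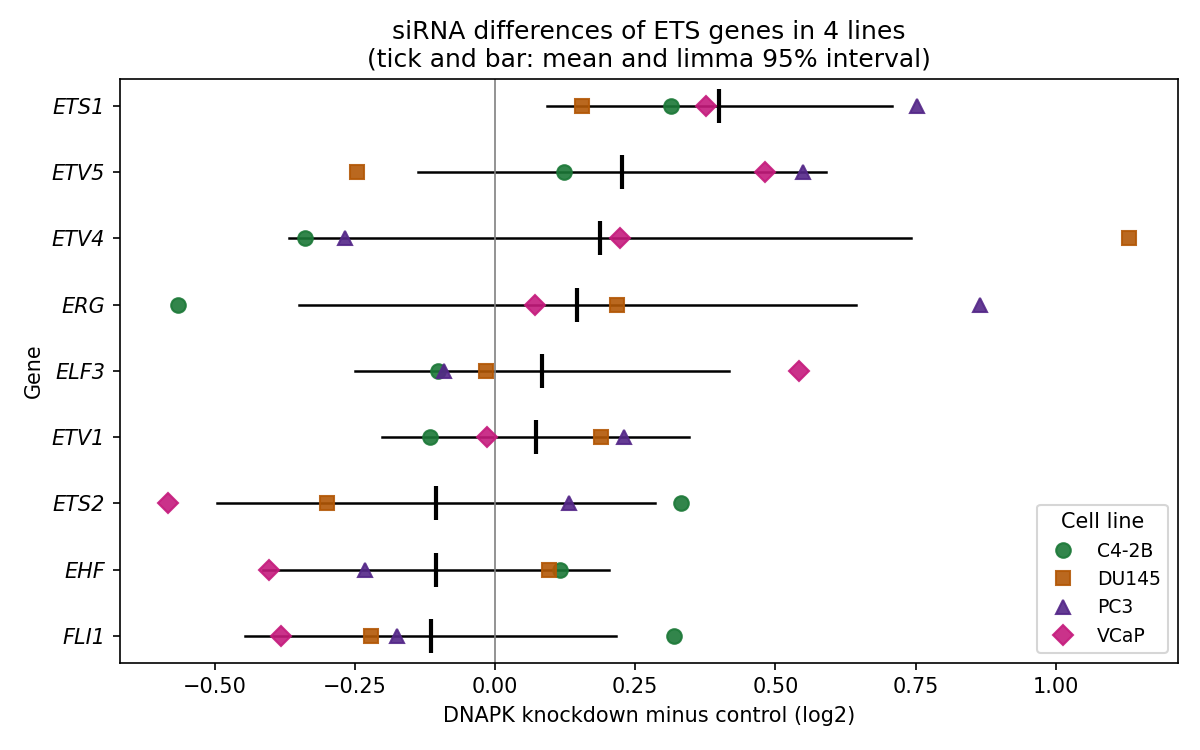
DNAPK knockdown minus control on the log2 scale (horizontal axis) for each of the 9 ETS genes, with 1 symbol per cell line, a tick at the mean of 4 lines and a bar for the limma 95% interval. All 4 ETS1 symbols lie right of 0 (0.16 to 0.75), the DU145 symbol of ETV4 stands at 1.13, and every interval except that of ETS1 spans 0.

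Among the PEA3 genes, ETV4 had the only difference past 1 of any member in any line. The share of all tested genes past 1 in either direction was 3.7% for VCaP, 1.12% for DU145, 1.07% for PC3 and 0.583% for C4-2B. In DU145 it went from 4.13 to 5.26, a difference of 1.13 or 2.19-fold, where 0.304% of all tested genes were past 1 in that direction. It differed by -0.34 in C4-2B, -0.27 in PC3 (where its level is highest) and 0.22 in VCaP. The mean was 0.19 ± 0.68 (SD, n = 4 lines; limma interval -0.37 to 0.74, adjusted p = 0.853), and it turned to -0.13 without DU145. ETV1 differed by 0.23 in PC3, where it is expressed, and by 0.19 (DU145), -0.01 (VCaP) and -0.12 (C4-2B) in the lines where it was below the filter level (mean 0.07 ± 0.16, SD, n = 4 lines; limma interval -0.20 to 0.35, adjusted p = 0.886). ETV5 differed by 0.55 in PC3, 0.48 in VCaP, 0.12 in C4-2B and -0.25 in DU145. Its mean was 0.23 ± 0.37 (SD, n = 4 lines; limma interval -0.14 to 0.59, adjusted p = 0.744). DU145, the line with the largest ETV4 difference, was thus the line where ETV5 lay below its control.

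The epithelial members and ETS2 had no common direction either. EHF differed by -0.40 in VCaP, -0.23 in PC3, 0.12 in C4-2B and 0.10 in DU145 (mean -0.11 ± 0.25, SD, n = 4 lines; limma interval -0.41 to 0.20, adjusted p = 0.850). ELF3 differed by 0.54 in VCaP but by -0.02 to -0.10 in DU145, PC3 and C4-2B. VCaP stood apart, and the mean of 0.08 ± 0.31 (SD, n = 4 lines; limma interval -0.25 to 0.42, adjusted p = 0.893) turned to -0.07 without it. ETS2 differed by 0.33 in C4-2B and 0.13 in PC3 but by -0.30 in DU145 and -0.58 in VCaP. Its mean of -0.10 ± 0.41 (SD, n = 4 lines; limma interval -0.50 to 0.29, adjusted p = 0.885) turned to 0.05 without VCaP.

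Line by line, 5 of the 9 genes had a difference above 0 in each line, beside 49.7% of all tested genes in VCaP, 55.5% in PC3, 56.9% in DU145 and 57.1% in C4-2B. Differences past 0.5 in either direction were found for 3 members in PC3 (ERG, ETV5 and ETS1), 2 in VCaP (ELF3 and ETS2), 1 in C4-2B (ERG) and 1 in DU145 (ETV4). The shares of all tested genes past 0.5 were 11.3% in PC3, 23.3% in VCaP, 8.27% in C4-2B and 11.4% in DU145. A further fit set the mean response of C4-2B and VCaP against that of DU145 and PC3. The grouping follows the ETS rearrangements known for VCaP and for LNCaP, the parent of C4-2B. It does not follow the ETV1 signal, which was high in PC3 and low in C4-2B. The fit called 0 of the 9 and 0 of all tested genes (0%), with 3.7% of all tested genes at an unadjusted p under 0.05. ERG had the smallest unadjusted p among the members, at a difference in response of -0.79 (interval -1.58 to 0.01; limma, unadjusted p = 0.0515, adjusted p = 0.991). VCaP, the line with high ERG, entered that value with 0.07.

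The 19 other ETS genes were all measured, and 15 of them lay above the filter. ELF4, ELF5, ELK3, SPDEF and SPIC had line levels over 2 apart. ELF5, the neighbour of EHF, had mean levels of 7.06 in C4-2B and 5.30 in VCaP against 2.54 in PC3 and 2.33 in DU145, and was called higher in both C4-2B and VCaP than in the other lines, as EHF was. SPDEF, a factor of luminal prostate epithelium, read 9.20 in C4-2B, 8.89 in VCaP and 8.45 in PC3 but 5.34 in DU145, and was called lower in DU145 than in each other line, as EHF was. ELF4 (6.45 in PC3, 6.12 in DU145, 4.89 in C4-2B, 2.88 in VCaP) and ELK3 (6.41 in DU145, 6.12 in PC3, 4.32 in C4-2B, 3.71 in VCaP) were called higher in DU145 and PC3 than in both other lines. SPIC, a macrophage factor, lay below the filter and was not tested. It read 2.68 and 4.12 on the arrays of C4-2B and at most 2.62 elsewhere.

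None of these 15 genes was called for the siRNA difference, with 8 means above 0 and 7 below, a median of 0.02, and 0 at an unadjusted p under 0.05. ELF1, a broadly expressed member, read 9.48 on the control and 8.34 on the knockdown array of VCaP, a difference of -1.14 and the only one of the 15 past 1 in any line (3.7% of all tested genes were past 1 in VCaP). Its difference was between -0.25 and 0.12 in the other 3 lines, and its mean was -0.33. SPDEF went from 5.78 to 4.89 in DU145, where it is lowest, and had a mean of -0.24. ELK1, a partner of SRF, had a mean of 0.25.

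**Figure D3:**
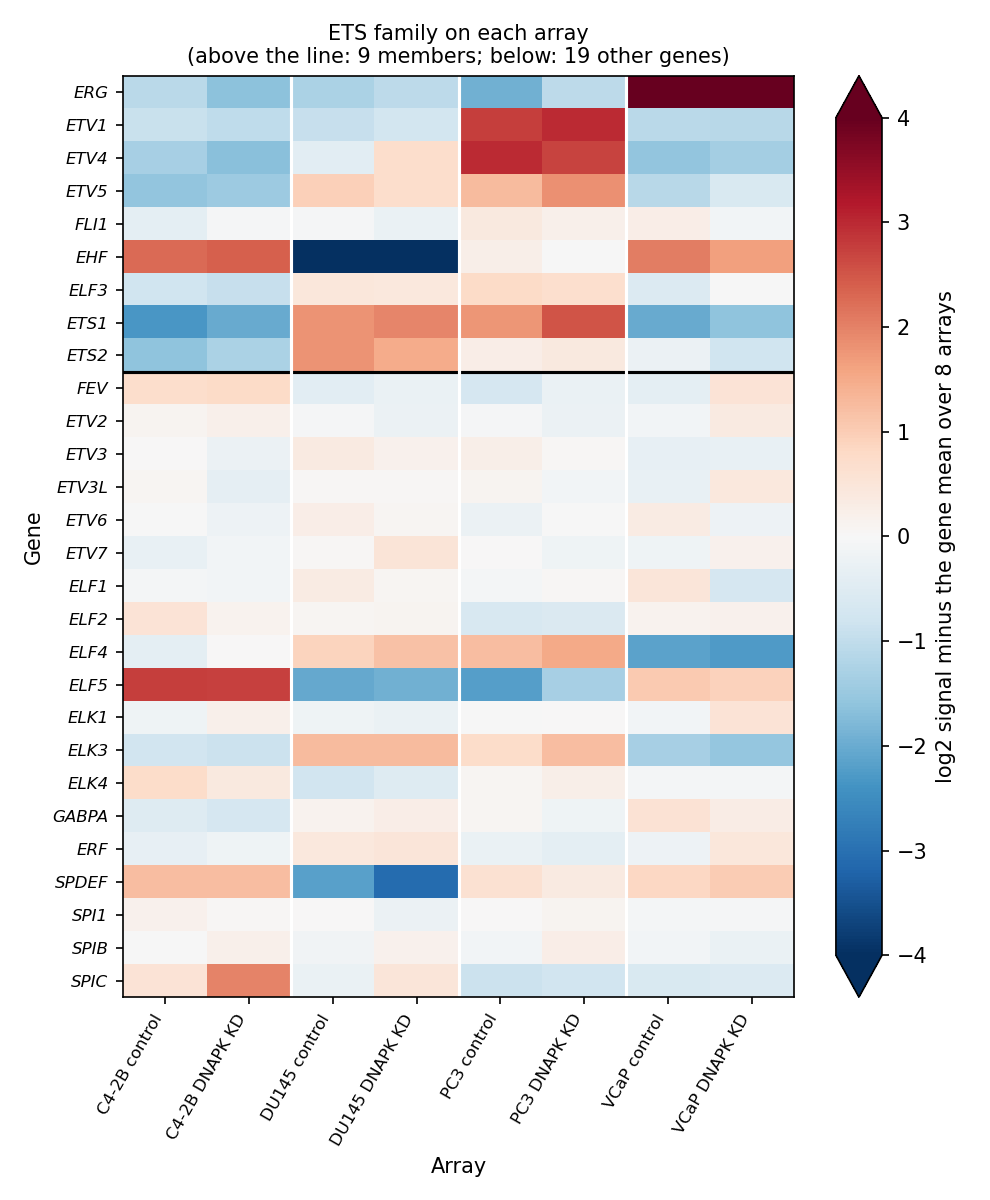
Log2 signal minus the gene's own mean over 8 arrays (colour scale, limited to 4 in either direction) for the 9 ETS genes above the line and the 19 others below it, with 1 column per array. ERG stands out in both VCaP columns, ETV1 and ETV4 in PC3, EHF and SPDEF are low in DU145, and ELF5 is highest in C4-2B (7.09 and 7.04).

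Of 16 genes known to accompany ERG, 7 were called higher in VCaP than in each other line (TDRD1, CACNA1D, PLA1A, CRISP3, ARHGDIB, LEF1 and SH3RF1), where 7.55% of all tested genes had that pattern. The count was 7 in each of the 13 alternative settings run. TDRD1, a germline gene often expressed with ERG fusions, read 10.14 and 9.92 in VCaP and at most 3.29 elsewhere. CRISP3, a secreted protein of the prostate, read 11.24 and 10.70 in VCaP and at most 5.98 elsewhere. PLA1A, a phospholipase, read 9.82 and 9.40 against at most 4.10. Not all followed ERG: PLAT, SOX9 and TFF3 were called highest in PC3 (6.15% of all tested genes were) and CXCR4 in DU145 (5.63% were). PLAU read 8.51 or more in DU145 and PC3 but at most 3.26 in C4-2B and VCaP.

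For the siRNA difference, none of the 16 was called, with 6 means above 0, 10 below, a median of -0.07 and 3 at an unadjusted p under 0.05. Those with the largest means were AMPD3 (0.34), PLA1A (-0.33), CXCR4 (-0.33) and SOX9 (-0.33). In VCaP alone, 3 of the 16 lay above 0 and 13 below, where 49.7% of all tested genes lay above 0. Their median was -0.40, beside -0.00316 over all tested genes and a difference of 0.07 for ERG itself. CRISP3 differed by -0.55 there, LEF1 by -0.41, PLA1A by -0.42, CACNA1D by -0.33 and TDRD1 by -0.22. This is 1 control and 1 knockdown array, with no replicate check. In DU145, where ERG is low, 12 of the 16 lay above 0, beside 56.9% of all tested genes.

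Of 16 read-outs of ERK signalling, which acts upstream of the PEA3 genes, 10 were called higher in PC3 than in each other line (6.15% of all tested genes were), and 8 to 11 were under the alternatives. They included the phosphatase genes DUSP4 and DUSP6, the feedback inhibitors SPRY1, SPRY4, SPRED1 and SPRED2, and EPHA2, CCND1, IER3 and FOSL1. DU145 shared part of this: 9 of the 16 were called higher in DU145 and in PC3 than in both C4-2B and VCaP (5.24% of all tested genes were). FOSL1, an AP-1 subunit, read 10.19 and 10.29 in PC3, 7.81 and 8.68 in DU145, and at most 4.10 in C4-2B and VCaP. SPRY4 read 7.91 and 7.84 in PC3 and at most 3.95 elsewhere. EGR1 did not follow, reading 6.35 and 6.54 in DU145 and at most 3.92 elsewhere. None of the 16 was called for the siRNA difference (9 means above 0, 7 below, median 0.03, 2 at an unadjusted p under 0.05). SPRY2 had the largest mean, -0.52, and was below 0 in each of the 4 lines (5.89% of all tested genes were), while DUSP5 (0.36), EPHA2 (0.36) and FOSL1 (0.31) lay above 0. In DU145, where ETV4 differed by 1.13, FOSL1 differed by 0.87 and PHLDA1 by 1.14, DUSP4 by -0.82.

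**Figure D4:**
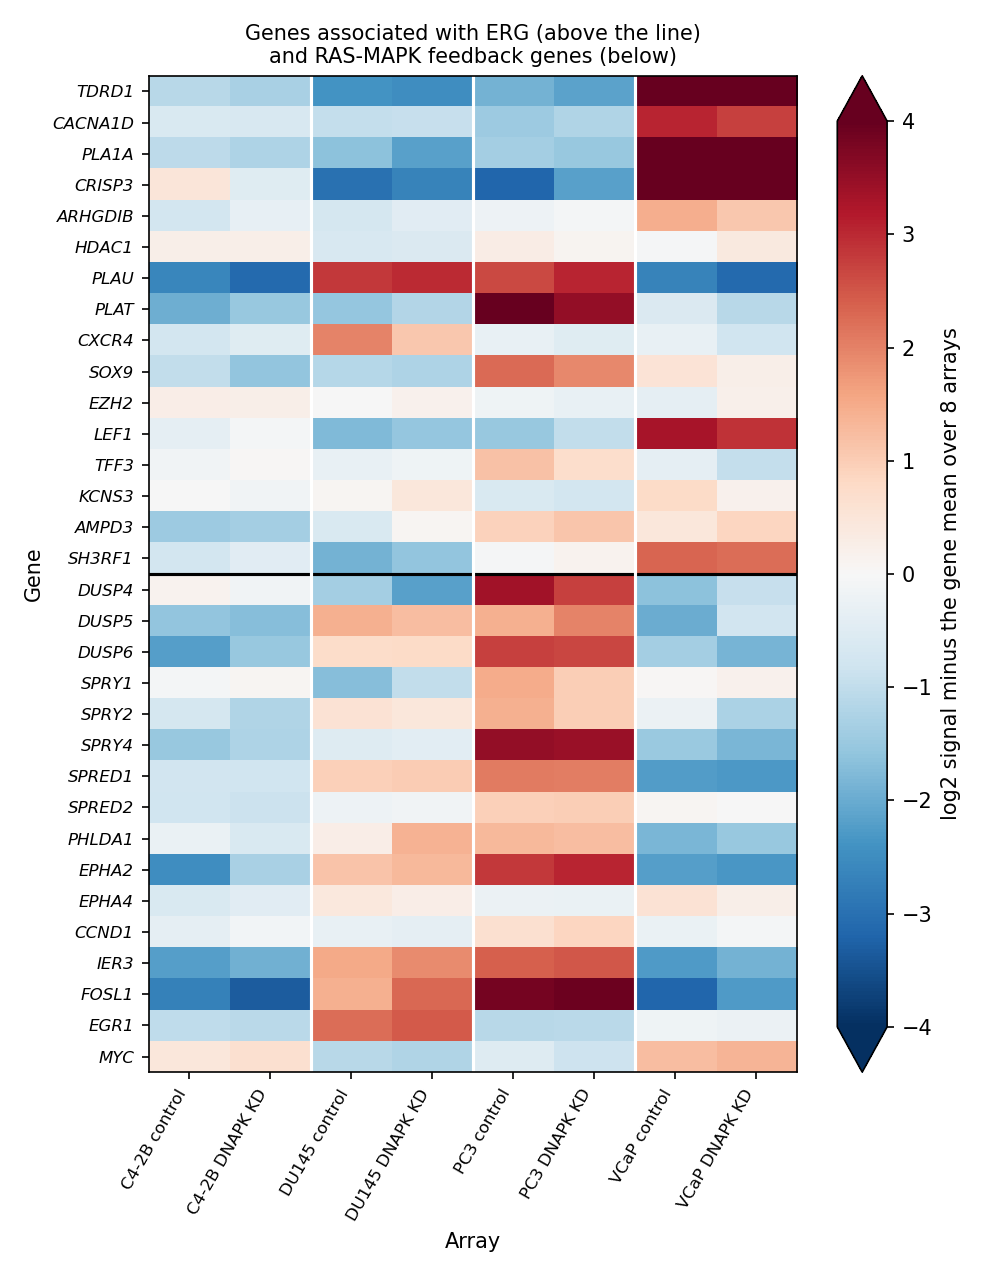
Log2 signal minus the gene's own mean over 8 arrays (colour scale, limited to 4 in either direction) for 16 genes associated with ERG (above the line) and 16 ERK read-outs (below it), with 1 column per array. TDRD1, PLA1A and CRISP3 stand out in the VCaP columns, as ERG does, and FOSL1, SPRY4 and DUSP4 in the PC3 columns, as ETV1 and ETV4 do.

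Of 13 matrix protease and invasion genes, textbook ETS targets, 10 lay above the filter. Of these, 5 were called higher in PC3 than in each other line (MMP1, MMP13, PLAUR, ADAM19 and ITGA2; 6.15% of all tested genes were), and 3 to 5 were under the alternatives. Both DU145 and PC3 were called higher than both C4-2B and VCaP for 6 of the 10 (5.24% of all tested genes). MMP13, a collagenase, read 7.94 on the control and 6.57 on the knockdown array of PC3, and MMP1 read 6.42 and 4.37 there. These are differences of -1.37 and -2.05, where 0.542% of all tested genes were past 1 lower in PC3. In DU145, MMP1 went the other way, from 2.54 to 3.81. Over the 4 lines none of the 10 was called (4 means above 0, 6 below, median -0.12, 0 at an unadjusted p under 0.05), and the largest means were MMP13 (-0.32), ITGA2 (-0.30), ITGB3 (-0.25) and MMP1 (-0.19).

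Of 14 epithelial genes that go with EHF and ELF3, 7 were called lower in DU145 than in each other line (CLDN4, ESRP1, GRHL2, OVOL1, ST14, RAB25 and CDS1), where 4.24% of all tested genes were, and 5 to 8 were under the alternatives. GRHL2, an epithelial transcription factor, read 3.19 and 3.36 in DU145 and at least 7.49 elsewhere. CDH1 (E-cadherin) and EPCAM stayed high in DU145, at 9.21 and 9.07 and at 8.84 and 8.85. Even so, CDH1 was called higher in C4-2B and in VCaP than in both DU145 and PC3 (3.79% of all tested genes were). KRT19 was called highest in PC3, the line with the highest ELF3 level. None of the 14 was called for the siRNA difference (7 means above 0, 7 below, median -0.00155, 0 at an unadjusted p under 0.05), with the largest means in ESRP2 (0.22), CDS1 (0.22), EPCAM (-0.18) and ESRP1 (-0.16).

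Of 8 measured genes that lend their control regions to ETS fusions, 4 were called higher in both C4-2B and VCaP than in the other lines (TMPRSS2, SLC45A3, HERPUD1 and KLK2; 3.79% of all tested genes were). TMPRSS2, the partner of ERG in VCaP, read 9.56 and 9.46 in C4-2B and 9.03 and 8.68 in VCaP, 6.72 and 7.17 in PC3, and 2.18 and 3.37 in DU145. ERG was thus low in C4-2B, where TMPRSS2 was higher on both arrays than on either VCaP array. KLK2, an androgen-regulated protease, read 11.37 and 11.56 in VCaP, unlike KLK3. In VCaP, TMPRSS2 differed by -0.36 between treatments and ERG by 0.07. None of the 8 was called for the siRNA difference (3 means above 0, 5 below, median -0.03, 1 at an unadjusted p under 0.05), and FOXP1 had the largest mean, -0.48, and was below 0 in each line. NDRG1 had a mean of -0.21, HERPUD1 -0.26 and TMPRSS2 0.30. In C4-2B all 8 lay below 0, with a median of -0.26, where 57.1% of all tested genes lay above 0.

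Of 13 measured partners and regulators of ETS proteins, none had line levels over 2 apart, beside 15.5% of all tested genes. In each pair of lines 3 to 5 of the 13 were called, where 30.5% to 41.7% of all tested genes were. None was called for the siRNA difference (7 means above 0, 6 below, median 0.01, 0 at an unadjusted p under 0.05). CIC, the repressor of the PEA3 genes, read 3.96 and 4.56 in PC3, where ETV1 and ETV4 are highest, and at least 4.69 elsewhere. It was called lower in PC3 than in DU145 and VCaP, but not than in C4-2B (limma, adjusted p = 0.130). The mean siRNA difference of CIC was 0.25. COP1 was the 1 gene of the 13 called lower in PC3 than in each other line, where 3.73% of all tested genes were. COP1 read 6.03 and 6.02 in PC3 and at least 6.76 elsewhere. ATXN1L, which stabilises CIC, had a mean of 0.28 and lay above 0 in each of the 4 lines, while its relative ATXN1 had -0.26 and GABPB2, a partner of GABPA, had -0.20. PARP1, a described partner of ERG, read 7.95 and 8.07 in DU145 and at least 8.44 elsewhere, with differences of -0.12 to 0.11.

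The genes whose signals most resembled a member over the 8 arrays were named by their Pearson correlation, as a description. The arrays share 4 lines, so each correlation rests mainly on which line is high. For ERG they were NPY6R (r = 0.996), SSX3 (0.995) and OLFM1 (0.995), all high in VCaP. For ETV1 they were SERPINB7 (0.999), ABI3BP (0.999) and HMGA2-AS1 (0.998), all high in PC3. HMGA2-AS1 is an antisense RNA. For ETV4 they were the gap junction gene GJA1 (0.994), PRDM8 (0.993) and CREG2 (0.993). PRDM8 also differed in DU145, from 3.48 to 4.48, as ETV4 did, but the correlation that picked it includes those 2 arrays. For EHF they were ARHGAP28 (0.998), USP54 (0.994) and GUCY1A1 (0.994). GUCY1A1, a subunit of guanylate cyclase, read 1.97 and 2.26 in DU145 and at least 6.86 elsewhere.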

How the data were processed

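The authors deposited log2 signals for each probe set, made with oligo and RMA, per the submitters' processing notes, with no version or genome build. Per the labels' protocols, 400 ng of total RNA was used per array. RMA makes array distributions alike, so a difference is relative to the bulk of transcripts. The table held 53617 probe sets, of which 23871 had 1 symbol in the platform annotation and 1842 several, and 22572 were named through the Entrez identifier. The probe set with the highest mean stood for each of 22395 genes. Tests ran on the 16796 genes whose mean exceeded the 25th percentile (2.51).

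Fits used limma 3.58.1 (lmFit and eBayes, R 4.3.3), 2-sided, with Benjamini-Hochberg adjustment over all tested genes and a threshold of 0.05. The siRNA difference had the cell line as a block (3 residual degrees of freedom, 7.55 in total with the prior). The line contrasts had treatment as a term (3 residual degrees of freedom), so their spread comes from how treatments differ between lines. The difference in response had 2. The number of arrays limits the precision. No p-value is given within a line.

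The 9 genes and all lists were chosen with earlier results of these data known. The text names the 9 genes and PRKDC, other ETS genes with line levels over 2 apart or among the 3 largest mean siRNA differences, the 4 largest of each other list, the 3 most correlated genes for ERG, ETV1, ETV4 and EHF, and line markers. Genes named beyond this were picked once their values had been seen. Alternatives were other filters, median centring, cyclic loess, the mean of all probe sets, another prior, no line block, no treatment term, and each line or array left out (arrays in the line contrasts and lines in the difference in response were added after seeing the data). Python 3.11.15 was used for tables.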

Additional observations from a re-analysis of the deposited data

Results flagged for a closer look

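In each group of 4 arrays or 4 differences, the gap between the highest or lowest value and its nearest neighbour was set against the range of the group, with Dixon's critical value of 0.829. Of 27 groups checked for the 9 genes, 5 exceeded it, where chance gives about 1 in 20 for independent groups of values drawn alike. The control and knockdown groups of a gene hold the same lines, and the genes were chosen with earlier results known. The share is thus a description and not a test.

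ERG in the VCaP control array read 8.57, against 3.52 for the nearest line (gap over range 0.857). ERG in the VCaP knockdown array read 8.65, against 3.56 (0.892). ETV1 in the PC3 control array read 5.92, against 2.25 (0.954), and in the PC3 knockdown array 6.15, against 2.41 (0.913). The siRNA difference of ELF3 was 0.54 in VCaP, against -0.0153 for the nearest line (0.867), and it rests on 1 array per treatment.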

How the results depend on the processing

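The siRNA difference and the difference in response gave 0 calls in every alternative run. At an unadjusted p under 0.05 the siRNA difference gave 63 genes with no replicate block, where the spread between lines enters the error, to 1550 with no filter (1208 as reported). The calls of genes between lines moved by over 1.5 times only when 1 array of the lines compared was left out, which leaves that line with 1 array assumed to vary like the others. Leaving out each of the 8 arrays gave 3349 to 6638 genes for DU145 against C4-2B (5799 as reported), 3521 to 6986 for PC3 against C4-2B (6076), 3093 to 5529 for VCaP against C4-2B (5834), 2716 to 6066 for PC3 against DU145 (5129), 4788 to 6508 for VCaP against DU145 (7010) and 4621 to 6650 for VCaP against PC3 (6905).

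The siRNA difference of 4 members changed sign when 1 line was left out. Over the lines left out, ERG ran from -0.0924 (without PC3) to 0.384, ETV4 from -0.128 (without DU145) to 0.362, ELF3 from -0.0694 (without VCaP) to 0.145 and ETS2 from -0.250 to 0.0548 (without VCaP). None of these was a call. Between lines, 6 contrasts that were not calls changed sign, in 7 settings. Over the arrays left out, DU145 minus C4-2B ran from -0.255 (without the C4-2B knockdown) to 0.696 for ERG, from -0.00045 (without the same array) to 0.250 for ETV1 and from -0.216 (without the C4-2B control) to 0.363 for FLI1. PC3 minus C4-2B ran from -0.604 to 0.353 for ERG, with 0.349 without the C4-2B control and 0.353 without the PC3 control. PC3 minus DU145 ran from -0.825 to 0.132 (without the PC3 control) for ERG. VCaP minus C4-2B ran from -0.299 (without the C4-2B knockdown) to 0.402 for ETV4. All 54 line contrasts of the members were run, 792 combinations of a contrast and an alternative. In 755 the direction and side of the threshold were kept, in 26 a call was lost and in 4 gained. Many of these could not move the difference itself: the filters, the mean of all probe sets, the trend prior, no treatment term and an array of another line left out. They could change only its spread or its adjusted p. Of the 36 calls, 28 held in every alternative run. The 8 that were lost in some were 1 of ETV4, 2 of ETV5, 2 of ELF3 and 3 of ETS2. ETV5 between VCaP and C4-2B was also lost with no filter (adjusted p = 0.0566), median centring (0.0586), the trend prior (0.0600) and no treatment term (0.0539) in limma. EHF between C4-2B and VCaP was called with the trend prior (adjusted p = 0.0371), and ELF3 between VCaP and C4-2B with a filter at the 50th percentile (adjusted p = 0.0431). The median siRNA difference of all tested genes was 0.03, and 0.0133 after median centring and 0.00919 after cyclic loess. No other probe set of a member was there to compare. With 1 array per treatment in a line, the differences within a line carry no error of their own.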
